A study of Homo sapiens with 9 samples.

Results

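The IFIT and IFITM genes are a pair of interferon-induced gene families, and 7 of their members were followed through PTBP1 knockdown in U251 cells. The members were the 7 entries of the deposited expression table whose symbol was IFIT1, IFIT2, IFIT3, IFIT5, IFITM1, IFITM2 or IFITM3, out of 22295 entries, of which 19932 were gene symbols and 2363 were loci assembled from the reads. These genes were chosen by what had been measured here, since interferon-stimulated genes were already known to be higher in the 7-day libraries, so their levels at 7 days are a description, and the counts past a threshold given there had an outcome that the choice of genes largely fixed. All 7 members passed the filter on low values, a mean of at least 0.1 FPKM over the 9 libraries, which left 15551 entries. FPKM counts fragments relative to transcript length and to the total mapped in a library, so levels of different genes can be set side by side.

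U251 is an established human glioblastoma line. The control group, sh-Luci-3d, was infected for 3 days with a lentivirus whose hairpin targets luciferase. The 3-day knockdown, sh-Ptbp1-3d, and the 7-day knockdown, sh-Ptbp1-7d, were infected for 3 and 7 days with a lentivirus whose hairpin targets PTBP1, and each group had 3 libraries. All 3 groups therefore carried a lentiviral vector with an M-cherry marker, PTBP1 was targeted by a single hairpin, and, per the study's methods, reprogramming cells were moved on the second day after infection to neuronal induction medium with N2, B27, forskolin and dorsomorphin. The labels do not say whether the sequenced cells, those of the 3-day groups included, were in this medium. No 7-day sh-Luci library was analysed here, so knockdown, time after infection and any time in the medium cannot be told apart in any comparison with the 7-day knockdown. The labels do not say whether the 3 libraries of a group came from separate cultures, so the p-values below measure only the spread between these libraries, which may be technical.

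IFIT proteins are cytosolic tetratricopeptide-repeat proteins that bind RNA ends which mark an RNA as foreign, such as triphosphate ends or caps without ribose methylation, and block its translation. IFITM proteins are small membrane proteins that hinder the fusion of viral envelopes with cell membranes. Both families are transcribed when secreted interferon binds its receptor, the kinases JAK1 and TYK2 pass the signal on, and a transcription factor complex that includes STAT2 and IRF9 binds the interferon-stimulated response element, or ISRE, of the promoter. Astrocytes and microglia of the brain also raise both families when exposed to type I interferon.

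The IFIT members lie in 1 cluster and the IFITM members in another. On GRCh38 (GENCODE v29), IFIT2 lies on chromosome 10 from 89283694 to 89309276, IFIT3 from 89327894 to 89340971, IFIT1 from 89392546 to 89406486 and IFIT5 from 89414586 to 89421001, all on the plus strand. On chromosome 11, IFITM2 lies from 307631 to 315272 and IFITM1 from 313506 to 315272 on the plus strand, and IFITM3 lies from 319669 to 327537 on the minus strand. The promoters are shown because the ISRE is the known control element of both families. RefSeq promoter sequences (GRCh38.p14) were matched by symbol for 5 of the 7 members, IFIT1, IFIT3, IFIT5, IFITM1 and IFITM3, with 2 starts for IFIT3, and were not matched for IFIT2 and IFITM2. Each sequence below runs 5′ to 3′ along the gene's own strand, from 180 bases before the RefSeq start to 5 bases after it, and capitals mark each ISRE core, here defined as GAAANNGAAA or, on the other strand, TTTCNNTTTC.
IFIT1, chr10:89392443-89392628, plus strand: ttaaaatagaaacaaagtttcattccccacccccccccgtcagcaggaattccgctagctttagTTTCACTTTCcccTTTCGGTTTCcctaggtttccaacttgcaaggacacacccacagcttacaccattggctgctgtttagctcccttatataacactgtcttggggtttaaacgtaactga
IFIT3 upstream start, chr10:89327817-89328002, plus strand: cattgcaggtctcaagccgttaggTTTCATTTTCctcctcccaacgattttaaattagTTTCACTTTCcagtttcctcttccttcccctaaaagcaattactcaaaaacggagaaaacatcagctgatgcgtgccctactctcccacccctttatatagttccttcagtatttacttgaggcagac
IFIT3 downstream start, chr10:89332349-89332534, plus strand: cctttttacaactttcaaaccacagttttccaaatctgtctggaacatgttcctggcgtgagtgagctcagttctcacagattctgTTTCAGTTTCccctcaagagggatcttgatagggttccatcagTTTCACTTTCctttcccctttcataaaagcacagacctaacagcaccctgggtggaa
IFIT5, chr10:89414388-89414573, plus strand: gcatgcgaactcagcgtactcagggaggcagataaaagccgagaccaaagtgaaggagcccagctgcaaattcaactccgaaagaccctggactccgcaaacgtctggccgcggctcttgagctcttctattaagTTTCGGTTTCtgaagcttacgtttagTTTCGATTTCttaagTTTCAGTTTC
IFITM1, chr11:313860-314045, plus strand: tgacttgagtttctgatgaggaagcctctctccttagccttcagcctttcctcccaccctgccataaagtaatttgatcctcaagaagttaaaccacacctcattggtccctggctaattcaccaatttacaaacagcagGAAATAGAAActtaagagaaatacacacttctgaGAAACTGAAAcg
IFITM3, chr11:320855-321040, minus strand: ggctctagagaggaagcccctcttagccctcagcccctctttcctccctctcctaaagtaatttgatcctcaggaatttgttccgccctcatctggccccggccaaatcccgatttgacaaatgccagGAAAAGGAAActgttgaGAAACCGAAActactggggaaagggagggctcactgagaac

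Each of the 6 windows held at least 2 ISRE cores, and they held 13 in all. Over all 35116 RefSeq windows of the same length (300 bases, from 250 before the start to 50 after), 3.57% held at least 1 core and 0.259% held at least 2. The cores of IFIT1, IFIT3 and IFIT5 were read as TTTCNNTTTC along the gene, and those of IFITM1 and IFITM3 as GAAANNGAAA. Counted with the start as 0, the cores of IFIT1 began at -116 and -103, separated by 3 bases, and those of the upstream IFIT3 start at -156 and -122. The cores of IFIT5, the only window with 3, began at -45, -19 and -4, so that the last spans the start. In IFITM1 they began at -40 and -6, and in IFITM3 at -52 and -35. A GAS motif, TTCNNNGAA, known from promoters that respond to interferon gamma, was found in 1 of the 6 windows, that of IFITM1 from -12 to -4, where it overlaps the core that begins at -6, and in 7.66% of all windows. A match of these letters describes the sequence and does not show binding. Along their aligned length the IFITM1 and IFITM3 windows were 59.9% identical, against 42.9% to 47.4% for the other pairs of members.

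**Figure D1:**
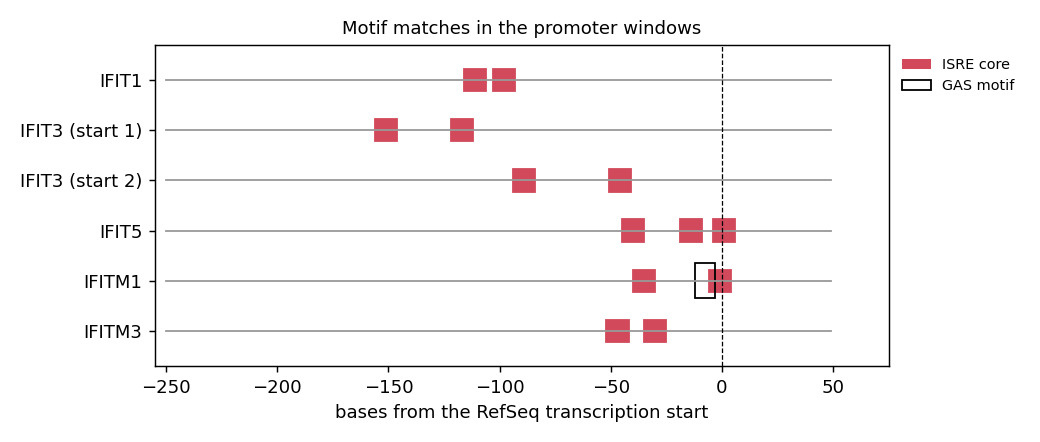
Positions of the motif matches in the 6 RefSeq promoter windows of 5 members, in bases from the transcription start (dashed line). Filled boxes are ISRE cores, at least 2 in every window and 3 in that of IFIT5, and the open box is the GAS motif of IFITM1.

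The knockdown and the cells were checked first. PTBP1 was at 115.7 ± 7.58, 63.9 ± 2.67 and 50.5 ± 0.645 FPKM (SD, n = 3) in the control, 3-day and 7-day groups. The 3-day knockdown mean was 0.552 of the control mean (log2 difference -0.85, limma adjusted p = 0.00314). PTBP1 itself thus did not reach a 2-fold difference in FPKM at 3 days. With other measures, qRT-PCR for mRNA and Western blot for protein, the study reported a stronger reduction by its hairpin at that day. In the 7-day knockdown against the control PTBP1 was lower by the thresholds (log2 difference -1.19, limma adjusted p = 3.77e-07). VIM, NES, SOX2, CD44 and EGFR, which glioma lines express, were detected in all libraries, whereas the astrocytic marker GFAP did not exceed 1.15 FPKM, S100B stayed below 1 FPKM and OLIG2 was near 0. Of 15 markers of immune and blood cells, 7 were at 0 in all libraries and CD14 reached the highest value, 1.11 FPKM. Their summed level was 0.865 to 1.11, 0.696 to 0.995 and 0.952 to 1.38 FPKM in the 3 groups, and that of 5 endothelial markers was 0.321 to 0.755, 0.313 to 0.711 and 0.112 to 0.286 FPKM. The summed level of the 8 glioma markers was 4429 to 4553, 4537 to 4846 and 1358 to 1481 FPKM in the 3 groups. Most of it was VIM, with means of 4168, 4381 and 1169 FPKM. CD44 and EGFR were also lower at 7 days. SOX2 went the other way, at 105.7, 124.5 and 144.8 FPKM, as did S100B at 0.121, 0.115 and 0.797 FPKM, and NES overlapped between the groups. The part of these markers in the results was not tested. The FPKM of a library summed to between 367412 and 404922, and the sums of the 7-day knockdown, 367412 to 379050, were below those of all other libraries. The sequencing depth is unknown, because the FPKM values show no steps of whole reads. These are bulk libraries, in which fewer cells of a type and less RNA per cell cannot be told apart.

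The IFIT members were compared by library. IFIT1, which recognises caps that lack ribose methylation, was at 107.8, 173.8 and 124.5 FPKM in the control libraries, 101.7, 108.1 and 133.2 FPKM in the 3-day knockdown libraries, and 415.4, 450.0 and 461.6 FPKM in the 7-day knockdown libraries. The 3-day groups overlapped, and every 7-day library lay above every 3-day library. The ratio of the IFIT1 group means was 3.87 for the 7-day over the 3-day knockdown and 3.27 over the control.

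IFIT2, which binds AU-rich RNA and has been linked to apoptosis, was the lowest IFIT member at 3 days. It was at 14.9, 30.0 and 19.1 FPKM in the control, 16.0, 17.2 and 28.2 FPKM in the 3-day knockdown, and 222.4, 228.5 and 188.9 FPKM in the 7-day knockdown. Its 7-day mean was 10.4 times the 3-day knockdown mean, the highest ratio among the IFIT members. The coefficient of variation of IFIT2 within a group was 36.4% in the control and 32.8% in the 3-day knockdown, so its 3-day level was known only roughly. The other members ran from 10.8% for IFITM2 to 34.8% for IFIT3 in the control, with IFITM1 at 32.0%.

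IFIT3, which joins the other IFIT proteins in a complex and stabilises IFIT1, was at 76.4, 141.9 and 86.1 FPKM in the control, 71.4, 79.6 and 101.5 FPKM in the 3-day knockdown, and 437.2, 450.4 and 453.3 FPKM in the 7-day knockdown. Its libraries again overlapped at 3 days and stood apart at 7 days, with a ratio of means of 5.31 over the 3-day knockdown and a coefficient of variation of 1.92% at 7 days. IFIT5, which binds triphosphate-ended RNA and acts outside this complex, was at 30.6, 42.2 and 25.3 FPKM in the control, 25.9, 29.1 and 31.2 FPKM in the 3-day knockdown, and 67.5, 69.3 and 68.3 FPKM in the 7-day knockdown. IFIT5 had the smallest ratio of all 7 members, 2.38 over the 3-day knockdown and 2.09 over the control, and the smallest spread at 7 days, a coefficient of variation of 1.29%.

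IFITM1, the family member found mainly at the plasma membrane, was at 67.0, 122.4 and 128.9 FPKM in the control, 92.2, 100.7 and 141.7 FPKM in the 3-day knockdown, and 3684, 3767 and 4153 FPKM in the 7-day knockdown. The groups overlapped at 3 days, and the lowest 7-day library exceeded every 3-day library. The ratio of means, 34.7 over the 3-day knockdown and 36.5 over the control, was the highest of the 7 members. By its group mean IFITM1 ranked 488th and 494th of the 22295 entries in the 3-day groups and 6th in the 7-day knockdown.

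IFITM3, which sits in endosomal membranes, was at 61.3, 88.1 and 97.9 FPKM in the control, 74.4, 82.0 and 103.9 FPKM in the 3-day knockdown, and 746.3, 806.4 and 852.6 FPKM in the 7-day knockdown, a ratio of means of 9.24 over the 3-day knockdown. IFITM2, its closest relative and also endosomal, was the lowest member in every group, at 6.001, 7.29 and 7.28 FPKM in the control, 6.05, 6.31 and 6.94 FPKM in the 3-day knockdown, and 36.3, 37.0 and 42.3 FPKM in the 7-day knockdown. For both genes the 3-day groups overlapped and the 7-day libraries lay above all others. IFITM3 ranked 37th of all entries in the 7-day knockdown and IFITM2 ranked 1699th.

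**Figure D2:**
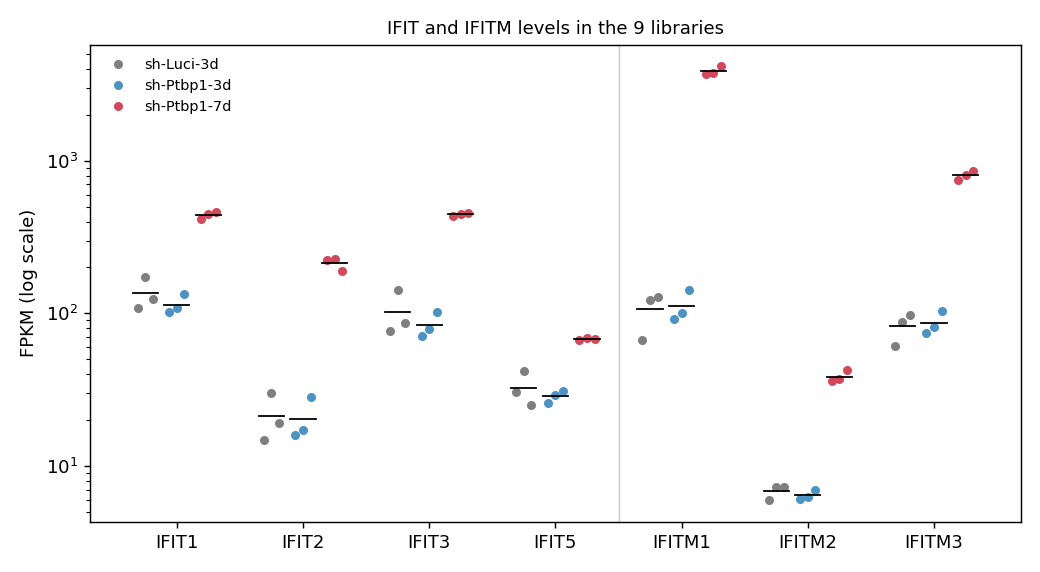
FPKM of the 7 members on a log axis, 1 point for each of the 9 libraries, coloured by group, with a bar at the group mean (n = 3). The 3-day groups overlap for every member and the 7-day knockdown points lie above them, from 36.3 to 42.3 FPKM for IFITM2 up to 3684 to 4153 FPKM for IFITM1.

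The order of the members differed between the 3-day and the 7-day libraries. In both 3-day groups IFIT1, IFITM1, IFIT3 and IFITM3 had the highest means, and neighbours among these 4 overlapped. IFIT5 followed, with a range that overlapped that of IFIT2 although IFIT5 was the higher in each of the 6 libraries, and IFITM2 came last without overlap. At 7 days the order was IFITM1, IFITM3, IFIT3, IFIT1, IFIT2, IFIT5 and IFITM2. Only IFIT3 and IFIT1, at 447.0 ± 8.59 and 442.3 ± 24.0 FPKM (SD, n = 3), overlapped there.

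The share of each member within its family followed from these unequal ratios. IFITM1 made up 53.7% ± 3.36 of the summed IFITM FPKM in the control, 54.3% ± 1.61 in the 3-day knockdown and 82.2% ± 0.402 in the 7-day knockdown (SD, n = 3), while IFITM3 stood at 42.6% ± 2.69, 42.5% ± 1.23 and 17.0% ± 0.411. The ratio of IFITM1 to IFITM3 within a library was 1.09, 1.39 and 1.32 in the control, 1.24, 1.23 and 1.36 in the 3-day knockdown, and 4.94, 4.67 and 4.87 in the 7-day knockdown. Such a ratio is taken within a library and does not depend on how libraries were scaled to each other. Within the IFIT family the share of IFIT2 was 7.24% ± 0.649, 8.12% ± 1.26 and 18.2% ± 1.83 in the same order, and that of IFIT5 was 11.4% ± 1.76, 11.7% ± 0.977 and 5.84% ± 0.0645. IFIT1 exceeded IFIT3 in every 3-day library, by a mean ratio of 1.36 in both groups, and the ratio was 0.950, 0.999 and 1.02 in the 7-day libraries. Together the IFITM members took 0.0497%, 0.0516% and 1.27% of the summed FPKM of a library, and the IFIT members 0.0742%, 0.0624% and 0.315% (means of 3).

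**Figure D3:**
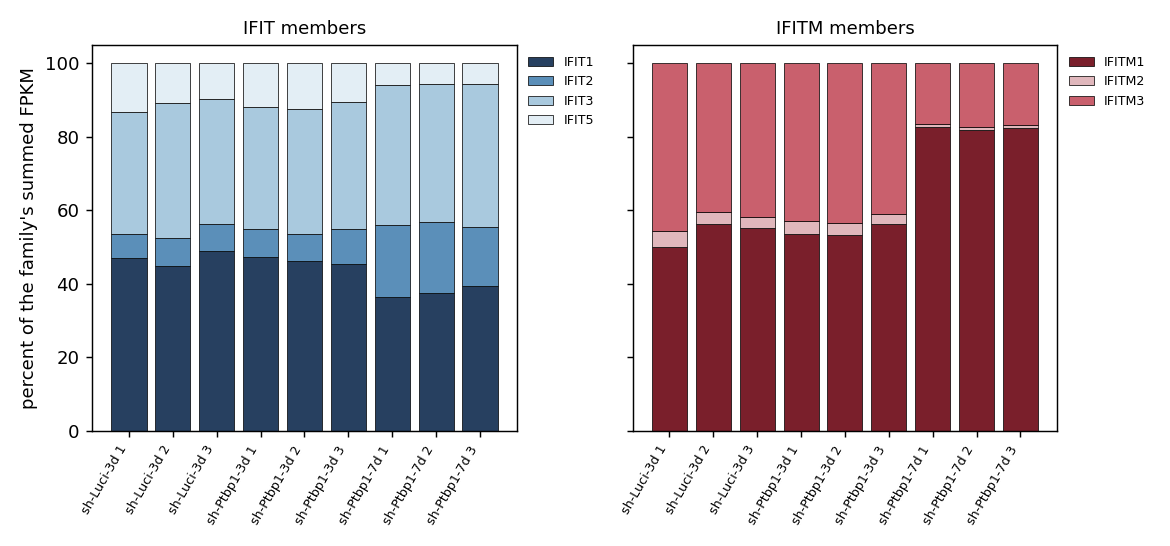
Share of each member in the summed FPKM of its family, in percent, 1 stacked bar per library. The 6 bars of the 3-day groups are alike within each family, while in the bars of the 7-day knockdown IFITM1 takes 81.7% to 82.5% of the IFITM sum and IFIT2 takes 16.1% to 19.5% of the IFIT sum.

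The comparison of the 3-day knockdown with the control asks what the PTBP1 hairpin changed at the same day, and no difference was detected in any member. With limma on log2(FPKM + 0.1), 0 of the 7 members passed a fold above 2 with an FDR below 0.05, against 0.0129% of the genes tested (2 of 15551). The study itself reported far more genes for this comparison at the same fold and FDR, so these counts hold for the present fit on FPKM values only. At an unadjusted p below 0.05 there were also 0 members, against 1126 genes. The groups overlapped for all 7 members, whereas they did not overlap for 10.8% of all genes, in either direction. IFIT1 had the lowest p and was at -0.22 on the log2 scale (standard error 0.160, 95% interval -0.58 to 0.13, limma adjusted p = 0.793), and IFIT2 was at -0.046 (standard error 0.252, interval -0.60 to 0.51, limma adjusted p = 0.979). IFITM1 was at 0.10 (standard error 0.231, interval -0.41 to 0.62, limma adjusted p = 0.937). The other 4 members lay between -0.23 and 0.087, with limma adjusted p from 0.833 for IFIT3 to 0.926 for IFITM3. The widest of these intervals still reach past 0.5 on the log2 scale, so smaller differences cannot be read from 3 libraries a group. The family medians were -0.19 for IFIT and 0.087 for IFITM, beside 0.00995 over all genes tested, and both changed sign when single libraries were left out: the IFIT median was 0.040 without control replicate 2, and the IFITM median was -0.18 without control replicate 1 and -0.081 without 3-day knockdown replicate 3. An exact permutation test of 3 libraries against 3 can give no two-sided p under 0.1.

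The libraries of a group differed among themselves in the same direction for most members. In the control, replicate 2 was the highest library for 4 of 4 IFIT members and 1 of 3 IFITM members, against 29.2% of all genes tested, and replicate 1 was the lowest for 3 of 4 and 3 of 3, against 24.2%. In the 3-day knockdown, replicate 3 was the highest for all 7 members, against 19.9% of the genes tested, and replicate 1 was the lowest for all 7, against 24.4%. In the 7-day knockdown, replicate 1 was the lowest for 3 of 4 IFIT members and 3 of 3 IFITM members, against 28.0%. Replicate 1 was thus the lowest library for most members in each of the 3 groups. What set these libraries apart was not tested.

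At 7 days every member was at a higher level, which is what the members were selected for, so the counts here are no test and nothing is read from them. In the 7-day against the 3-day knockdown all 7 members lay past a fold of 2 and an FDR of 0.01 and the groups did not overlap. For reference, 8.31% of all genes were higher and 5.9% lower by these thresholds, and the 7-day libraries lay wholly above for 35.3%. On the log2 scale the differences were 5.14 ± 0.231 for IFITM1, 3.42 ± 0.252 for IFIT2, 3.22 ± 0.169 for IFITM3, 2.56 ± 0.107 for IFITM2, 2.42 ± 0.201 for IFIT3, 1.96 ± 0.160 for IFIT1 and 1.25 ± 0.153 for IFIT5 (difference ± standard error). The median was 2.19 over the IFIT members and 3.22 over the IFITM members, beside 0.092 over all genes. Against the control, where 8.93% of all genes were higher, 5.68% were lower and 32.8% were wholly above, all 7 members again lay past the thresholds by the same choice. There the differences ran from 1.09 for IFIT5 to 5.24 for IFITM1, with medians of 1.96 and 3.31 beside 0.099 over all genes. Both comparisons use the same 7-day libraries. IFIT5 stood nearest to the threshold of 1 on the log2 scale, and against the control it was at 0.99 under median-ratio scaling and at 0.92 without control replicate 3.

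**Figure D4:**
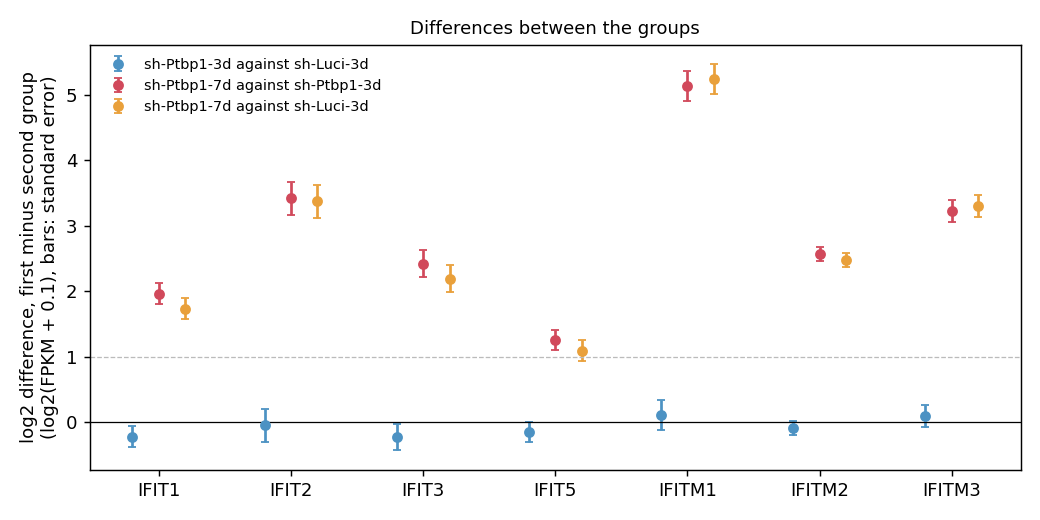
Differences of the members in log2(FPKM + 0.1) for the 3 comparisons, first minus second group, with bars for the limma standard error and a dashed line at 1, a 2-fold difference. Points of the 3-day knockdown against the control lie between -0.23 and 0.10, and both comparisons with the 7-day knockdown run from about 1 for IFIT5 to above 5 for IFITM1.

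Some of these values rest on sequence that members or neighbours share, and whether the authors' counting used the strand is not given in the sources used here. IFITM1 shares 32.5% of its exon bases with exons of IFITM2 on the same strand. Of the stretches of 50 bases in their transcripts, 32.9% of IFITM1, 30.2% of IFITM2 and 14.4% of IFITM3 also occur in another member, and the coding sequences of IFITM2 and IFITM3 are 93.2% identical. The level of IFITM2, which is 0.818% of the IFITM sum at 7 days, is therefore uncertain, and the part that reads of IFITM1 or IFITM3 have in it was not tested. The IFIT members share no such stretch, with coding identities of 57.0% to 66.2%. IFIT2 overlaps exons of AL353751.1 on the same strand in 8.68% of its exon bases and of LIPA on the opposite strand in 1.58%, and IFITM3 overlaps AC136475.5 on the opposite strand in 21.3%.

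The rest of each cluster was read from the entries within 100 kb of a member. Around the IFIT genes, LIPA encodes lysosomal acid lipase and spans IFIT2, IFIT3 and IFIT1, but not IFIT5, on the opposite strand. LIPA fell from 81.9 FPKM in the 3-day knockdown to 37.5 FPKM in the 7-day knockdown, a log2 difference of -1.13 (standard error 0.084, limma adjusted p = 1.83e-06). CH25H, which makes the antiviral sterol 25-hydroxycholesterol and is itself known as interferon-induced, was at 0.211 and 0.274 FPKM and did not pass (log2 difference 0.24, limma adjusted p = 0.544). IFIT1B, a relative of IFIT1 that lies between IFIT3 and IFIT1, was at or below 0.0824 FPKM in every 3-day library and at 0.205, 0.529 and 0.441 FPKM at 7 days. It passed the filter on low values only through the 7-day group, so these levels are given without a call. Of 8 entries tested around the IFITM genes none was higher and 1 was lower by the limma thresholds in the 7-day against the 3-day knockdown. Over all genes tested the shares were 8.31% and 5.9%, and 8 entries are too few to tell their counts from these shares. An unadjusted p below 0.05, in either direction, was held by 5 of them, beside 8751 of the 15551 genes tested. The 1 entry that was lower was the desmosomal plakophilin gene PKP3, at 4.70 and 1.95 FPKM in the 3-day knockdown and the 7-day knockdown (log2 difference -1.22, limma adjusted p = 0.000323). MSTRG.4134, an assembled locus 19 bases from IFITM3 on the other strand, was at 0.763 and 1.18 FPKM (log2 difference 0.60, limma adjusted p = 0.0854). Of the other IFITM genes, IFITM5, which is known from bone, was listed at 0 in all libraries, and IFITM10 was at 0.336, 0.454 and 0.984 FPKM in the 3 groups, past the thresholds against the control only, a contrast between comparisons that was not tested.

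**Figure D5:**
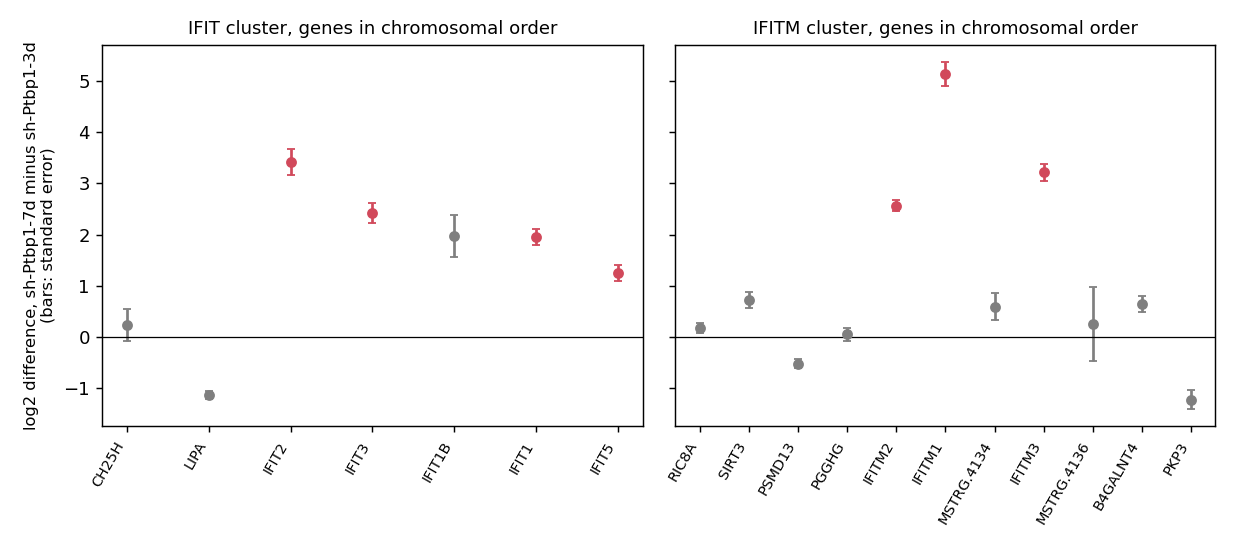
Log2 difference of 7-day minus 3-day knockdown for the tested entries within 100 kb of each cluster, in chromosomal order, with standard errors. Members (red) lie between 1.25 and 5.14, IFIT1B, admitted by its 7-day level alone, at 1.97, and the other neighbours (grey) between -1.22 and 0.72.

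The pathway above the members was read from gene lists, for which the background shares are those given above. In the 3-day knockdown against the control 0 of the 40 pathway and partner genes tested passed the thresholds by limma, and 2 had an unadjusted p below 0.05. Among 10 interferon genes only IFNB1 and IFNE were tested. IFNB1, the gene of interferon beta, was listed at 0 in all control libraries, at 0, 0.116 and 0 FPKM in the 3-day knockdown, and at 0.567, 0.294 and 0.762 FPKM in the 7-day knockdown. IFNB1 passed the filter on low values only through the 7-day group, so its place past the thresholds is no result. IFNE was at 1.02 and 0.977 FPKM in the 3-day knockdown and the 7-day knockdown. None of 6 receptor subunits passed in either comparison at 7 days by limma. An unadjusted p below 0.05 was held by 3 and 2 of them, beside 8751 and 8730 of the 15551 genes tested. IFNAR1, which binds type I interferon, was at 9.03, 7.86 and 9.63 FPKM in the 3 groups.

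Of 8 kinases and transcription factors 3 were higher in the 7-day knockdown than in the 3-day knockdown. These were JAK2, a kinase of the interferon gamma receptor, with a log2 difference of 1.26, STAT2 with 1.498 and IRF1, a factor that binds ISRE-like sites, with 1.93. IRF9, the DNA-binding partner of STAT2, was at 7.52 and 13.6 FPKM and did not reach a 2-fold difference (0.86). JAK1 was at 29.7 and 19.7 FPKM, a log2 difference in the opposite direction that was also under 2-fold (-0.59, limma adjusted p = 0.000573). Against the control 3 of the 8 passed. Of 7 sensors of foreign nucleic acid and adaptors of such sensors tested, 5 were higher in both comparisons and none lower against the 3-day knockdown. Among these 5, ZBP1, a sensor of Z-form nucleic acid, passed the filter on low values only through the 7-day group. It was at 0.0218 and 0.861 FPKM in the 3-day and 7-day knockdown. The sensors at the highest level were DDX58, the gene of RIG-I, at 51.1 and 171.3 FPKM in the 3-day knockdown and the 7-day knockdown, and IFIH1, the gene of MDA5, at 23.6 and 131.9 FPKM. MAVS, the adaptor of both, was at 12.9 and 6.78 FPKM (log2 difference -0.93), and it was lower by the thresholds against the control (-1.03). Of 4 inhibitors 2 were higher against the 3-day knockdown and 3 against the control. USP18, which dampens signalling at the receptor, differed by 1.94 against the 3-day knockdown and SOCS1, which blocks JAK kinases, by 1.36, and SOCS3, a relative of SOCS1, by 0.90 against the 3-day knockdown and by 1.24 against the control.

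The proteins that IFIT and IFITM proteins are known to work with or be modified by were counted in the same way. None of 6 genes for translation initiation factor 3 subunits and cap methyltransferases passed in either comparison at 7 days by limma. In each, 4 had an unadjusted p below 0.05, beside 8751 and 8730 of the 15551 genes tested. The median log2 difference of the 6 genes was -0.27 against the 3-day knockdown. The members of this list differed in direction, with EIF3A, EIF3C and EIF3E at -0.62, -0.67 and -0.49 and the cap methyltransferase CMTR1 at 0.68 (limma adjusted p = 6.28e-05), all under 2-fold. Of 7 genes for IFITM modifiers and partners 1 was higher, FYN, a kinase that phosphorylates IFITM3, at 7.01 and 16.3 FPKM (log2 difference 1.21). All others had negative differences under 2-fold, from -0.16 for ZMPSTE24 to -0.59 for ZDHHC20, and the median of the list was -0.28. By limma, 4 of the 7 had an unadjusted p below 0.05 against the 3-day knockdown, beside 8751 of the 15551 genes tested.

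The genes whose profile over the 9 libraries was most like that of a family were found by the root mean square difference in centred log2(FPKM + 0.1) from the mean profile of the family, among 11333 genes that averaged 1 FPKM or more. For the IFIT family they were IFIH1 at 0.114, NMI at 0.121, GBP3 at 0.129, TENT5A at 0.168 and APOL6 at 0.170. The members themselves lay at 0.0752 for IFIT3, 0.170 for IFIT1, 0.490 for IFIT5 and 0.588 for IFIT2. IFIT5 and IFIT2 were thus farther from the family mean than those 5 genes. For the IFITM family the nearest genes were TAP1, the peptide transporter of antigen presentation, at 0.106, UBE2L6, an ISG15-conjugating enzyme, at 0.161, MDK, the growth factor midkine, at 0.163, HAP1 at 0.179 and BTN3A3 at 0.195. HAP1, at 0.339, 0.307 and 5.13 FPKM in the control, 3-day and 7-day groups, reached a mean of 1 FPKM only through the 7-day group. IFITM3 lay at 0.189, IFITM2 at 0.549 and IFITM1 at 0.730, so the gene with the highest level was the least like the family mean. These are likenesses over 9 libraries that form 3 groups, and nothing is read from them about function.

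Genes other than the 7 members were also counted by their ISRE cores. In the 7-day against the 3-day knockdown, 47.4% of the 38 tested genes with at least 2 cores in a RefSeq window were higher by the thresholds (18 genes), against 20.2% of 397 genes with 1 core and 7.23% of 10344 genes with none. The shares that were lower were 5.26%, 6.30% and 5.77%. Against the control the higher shares were 42.1%, 18.9% and 7.79%. In the 3-day knockdown against the control the higher shares were 0%, 0% and 0.00967%. Interferon-stimulated genes were already known to be higher at 7 days, so the 7-day shares are not independent of that earlier result. The filter on low values used all 9 libraries, so genes admitted by their 7-day level may be among those counted. These shares are a description over genes, which are not independent replicates, and no test was run on them.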

How the data were processed

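RNA-seq was made from 9 libraries of U251 cells, grouped by their labels. FPKM values per gene were deposited by the authors, who filtered Illumina HiSeq reads and mapped them to a reference. The submitters' processing notes name HISAT2 and GRCh38, and the counting program is not given in the sources used here. The positions of the assembled loci, another kind of deposited value, were used only to find neighbours. From the FPKM values, log2(FPKM + 0.1) was fitted with limma 3.58.1 (R 4.3.3) for the 15551 entries with a mean of at least 0.1 FPKM, with all 9 libraries in 1 model of 3 groups and an intensity trend, and p-values were adjusted by Benjamini-Hochberg. On this scale the change of low genes is understated. The thresholds followed the study, with the FDR of 0.01 also used for the 7-day knockdown against the control, and the fit was tested on simulated data. Coding sequences and transcripts came from GENCODE v29, promoters from RefSeq, and alignments were made with Biopython 1.88 in Python 3.11.15.

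The members and lists were chosen with earlier results of these data known. The genes named were the 7 members, PTBP1, the other genes of both families, listed pathway genes past the thresholds or, where more than 4 passed, the 2 with the highest FPKM, entries within 100 kb of a member, and the 5 genes most like each family. IFNE, IFNAR1, IRF9, MAVS, ZBP1, JAK1, CMTR1, EIF3A, EIF3C, EIF3E, ZMPSTE24, ZDHHC20 and the single marker genes were named in addition, after their values were seen. IFITM4P was not analysed here, and 1 gene of the pathway is not reported here. Alternatives were pseudocounts of 1 and 0.01, no filter, a filter at a mean of 1 FPKM, conversion to TPM, median-ratio scaling, quantile normalization, no trend, a replicate block, leaving out assembled loci, the groups compared alone, and leaving out each library in turn.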

Additional observations from a re-analysis of the deposited data

How the results depend on the processing

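Under the 20 alternatives, 0 of 7 members passed in the 3-day knockdown against the control. The 7-day counts of members follow from their choice and say nothing of stability. In the 7-day knockdown against the control IFIT5 missed the fold, at 0.99 under median-ratio scaling and 0.92 without control replicate 3. Leaving out single libraries moved the median log2 difference of the 3-day knockdown against the control between -0.32 and 0.040 for IFIT and between -0.18 and 0.22 for IFITM. It moved IFIT2 between -0.30 and 0.23, IFIT3 between -0.41 and 0.037, IFIT5 between -0.33 and 0.043, IFITM1 between -0.20 and 0.27 and IFITM3 between -0.11 and 0.22, so their direction there is not fixed. Quantile normalization moved the medians of the 7-day against the 3-day knockdown to 2.59 (IFIT) and 3.53 (IFITM), and the cause was not tested.

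Over all genes, the 2 calls of the 3-day knockdown against the control became 1 with a pseudocount of 0.01, a filter at a mean of 1 FPKM, conversion to TPM, median-ratio scaling, quantile normalization or no trend, 0 with the 2 groups alone, and 0 to 57 when a library was left out, with 57 without control replicate 3. A pseudocount of 1 gave 1255 calls in place of 2211 against the 3-day knockdown and 1269 in place of 2271 against the control. In the 7-day against the 3-day knockdown, 58.5% of calls were higher, 66.0% with TPM, 50.7% with median-ratio scaling and 49.01% with quantile normalization, and the median of all genes moved from 0.092 to 0.19, 0.0096 and -0.0087. Against the control these were 61.1%, 67.3%, 52.2% and 49.3%. Over all genes tested, no shared deviation of same-numbered libraries was visible, with correlations between -0.032 and 0.051 over 9 pairs. For the members alone, replicate 1 was the lowest library for most of them in each group. Neither observation can show whether same-numbered libraries were made together. A replicate block gave 0, 2140 and 2217 calls over all genes in the 3 comparisons. The depth is unknown, so no counting error could be given.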
